A study of Mus musculus with 20 samples.

Results

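miR-221 and miR-222 are microRNAs (miRNAs, short RNAs that guide the Argonaute protein to complementary messenger RNAs) made from neighbouring hairpins on the X chromosome. They were followed here in mouse liver, with every arm of both hairpins taken from the small RNA count tables, also inside joined names. This gave 4 rows, `mmu-miR-221-3p`, `mmu-miR-221-5p`, `mmu-miR-222-3p` and `mmu-miR-222-5p`, of 880 miRNA rows that every library listed and of 1509 that any library listed. None of the 4 stood inside a joined name. Small RNA was sequenced from whole livers of 5 PiZ and 5 WT mice, all C57BL/6, aged 6 weeks, with no treatment named and with sex not given. PiZ mice carry, as background, the human gene for the Z variant of alpha-1 antitrypsin with its own regulatory sequences, whose protein product accumulates in hepatocytes; WT mice lack it. Reads of the 2 technical runs per library were added up, and each of the 10 mice counts as 1 sample.

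The strands of a miRNA hairpin are named 5p and 3p after the arm they come from. Usually one of them, the guide, is loaded into Argonaute and accumulates. For miR-221 and miR-222 the 3p strand is the one described as the guide. Both 3p strands are known to repress the cell cycle inhibitors p27 and p57, and they are described as raised in regenerating and proliferating hepatocytes and in liver tumours. They are also known from endothelial and vascular smooth muscle cells.

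The mature sequences are shown because targeting rests on the seed, bases 2 to 8, and because a count table must tell these near relatives apart. Sequences and positions are from RefSeq on GRCm38.p6; the build behind the deposited counts is not known here. Capitals mark the seed.
miR-221-3p: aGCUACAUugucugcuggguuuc
miR-222-3p: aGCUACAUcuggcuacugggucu
miR-221-5p: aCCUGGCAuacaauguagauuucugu
The 3p strands of miR-221 and miR-222 shared their first 8 bases and 11 of 23 positions in all, so the seed was the same and most of the rest differed. miR-221-5p had a different seed, which 1 of 1679 mature mouse names in the RefSeq table carried. The seed of the 3p strands was carried by 3 names. The third was miR-1928 (chr1:74206562-74206578, minus strand), not analysed here. A RefSeq mature sequence was found for 3 of the 4 rows, all but miR-222-5p.

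Both hairpins lie on the minus strand of chromosome X. The Mir221 hairpin, 95 bases, spans chrX:19146294-19146388, and the Mir222 hairpin, 79 bases, spans chrX:19146893-19146971, with 504 bases between them. The mature strands lie at chrX:19146307-19146329 (miR-221-3p), chrX:19146344-19146369 (miR-221-5p) and chrX:19146901-19146923 (miR-222-3p). In GENCODE M21, 0 other genes overlapped the stretch from one hairpin to the other. The nearest annotated gene on the upstream side was the noncoding Gm14636, also on the minus strand, 10010 bases away. The hairpins are shown because the balance of their arms is described further on; capitals mark the mature strands that RefSeq lists.
Mir221: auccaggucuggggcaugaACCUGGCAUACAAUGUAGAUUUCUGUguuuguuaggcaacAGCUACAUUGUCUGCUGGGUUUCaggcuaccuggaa
Mir222: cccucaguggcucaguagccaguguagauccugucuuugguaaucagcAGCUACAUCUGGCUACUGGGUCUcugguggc

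Libraries held 1307857 reads (WT mouse 1) to 10780801 reads (PiZ mouse 4), and levels are given in CPM (counts per 1000000 reads of the library). In that unit 1 read was worth 0.765 CPM for WT mouse 1 and 0.0928 CPM for PiZ mouse 4. The tables came in 2 file sets that list different numbers of miRNAs: 1399 for PiZ mice 1 and 2 and WT mice 1 to 3, and 990 for PiZ mice 3 to 5 and WT mice 4 and 5. The model held a term for this set, and the shallow libraries were those of the longer list. WT mice 1 and 3 stood apart from the other WT mice. They also had the 2 shallowest of all libraries (1307857 and 1524426 reads), with reads for the fewest miRNAs (459 and 443). Library depth and other traits of these mice cannot be told apart. Their summed level of the endothelial miR-126a strands was 7897 and 12653 CPM, whereas the other WT mice had 32304 to 41279 CPM and the PiZ mice 23357 to 28800 CPM. Hepatocyte miR-122 and miR-802 strands, summed, were present in every library, at 7086 to 11855 CPM in PiZ and 11938 to 14560 CPM in WT. These sums did not overlap, where 8.93% of all tested miRNAs had at least 4 PiZ mice below all WT mice. The sums are nearly all miR-122-5p, which was not called (log2 fold change of PiZ over WT -0.48, edgeR adjusted p = 0.119). The other 3 of the 4 strands had positive log2 fold changes and were not called either. In WT mice 1 and 3 miR-122-3p and both miR-802 strands lay below all other mice, and miR-122-5p, which carries the sum, did not. Results that rest on WT mice 1 and 3 are therefore given with and without them.

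miR-221-3p was the main product of this locus in all 10 livers. Its level, in CPM scaled by the trimmed mean of M-values (TMM), was 160.4, 140.3, 124.1, 154.1 and 200.1 in PiZ mice 1 to 5. In WT mice 1 to 5 it was 295.3, 161.7, 257.6, 172.6 and 159.9. WT mice 1 and 3 lay above every other mouse, the other 3 WT mice lay among the PiZ mice, and 3 of 5 PiZ mice lay below all WT mice. Among all tested miRNAs, 47 of 336 had at least 3 PiZ mice below all WT mice. These levels rested on 310 to 1736 reads per mouse and placed miR-221-3p at rank 73 to 106 by abundance within a library.

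The group means of miR-221-3p were 155.8 ± 28.4 CPM in PiZ and 209.4 ± 62.8 CPM in WT (SD, n = 5 each). The log2 fold change of PiZ over WT was -0.36 (SE 0.24, 95% interval -0.90 to 0.18), with an adjusted p of 0.411 by edgeR's quasi-likelihood test with Benjamini-Hochberg adjustment over 336 miRNAs. On the linear scale this is a fold of 0.779, and the interval ran from 0.537 to 1.13, so the difference was within the error and did not pass the test.

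miR-221-5p, the partner strand of the same hairpin, was less abundant, at 1 read for each 7.74 reads of miR-221-3p. It stood at 18.0, 11.03, 13.0, 16.3 and 33.8 CPM in PiZ mice 1 to 5. WT mice 1 to 5 had 40.8, 21.4, 45.9, 19.5 and 22.7 CPM. WT mice 1 and 3 were again the highest 2 mice, and 4 of 5 PiZ mice lay below all WT mice, while PiZ mouse 5 lay above 3 of the WT mice. Of all tested miRNAs, 8.93% had at least 4 PiZ mice below all WT mice.

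The means of miR-221-5p were 18.4 ± 9.03 CPM in PiZ and 30.1 ± 12.3 CPM in WT (SD, n = 5 each). Its log2 fold change was -0.63 (SE 0.41, 95% interval -1.52 to 0.26), with an adjusted p of 0.381 by edgeR. Without PiZ mouse 5 it was -0.89 (95% interval -1.60 to -0.18; edgeR adjusted p = 0.0857), which still did not pass. Of the 2 strands tested, 0 were called by edgeR, 0 had an unadjusted p under 0.05, and 0 were called by DESeq2 (adjusted p = 0.248 for miR-221-3p and 0.235 for miR-221-5p) or by limma-voom (0.399 and 0.355). Over all miRNAs, 31 of 336 (9.23%) were called by edgeR in either direction and 3 (0.893%) were lower in PiZ. An unadjusted p under 0.05 was found for 82 (24.4%). DESeq2 called 50 of 336 and limma-voom 7. The median log2 fold change of all tested miRNAs was 0.069.

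**Figure D1:**
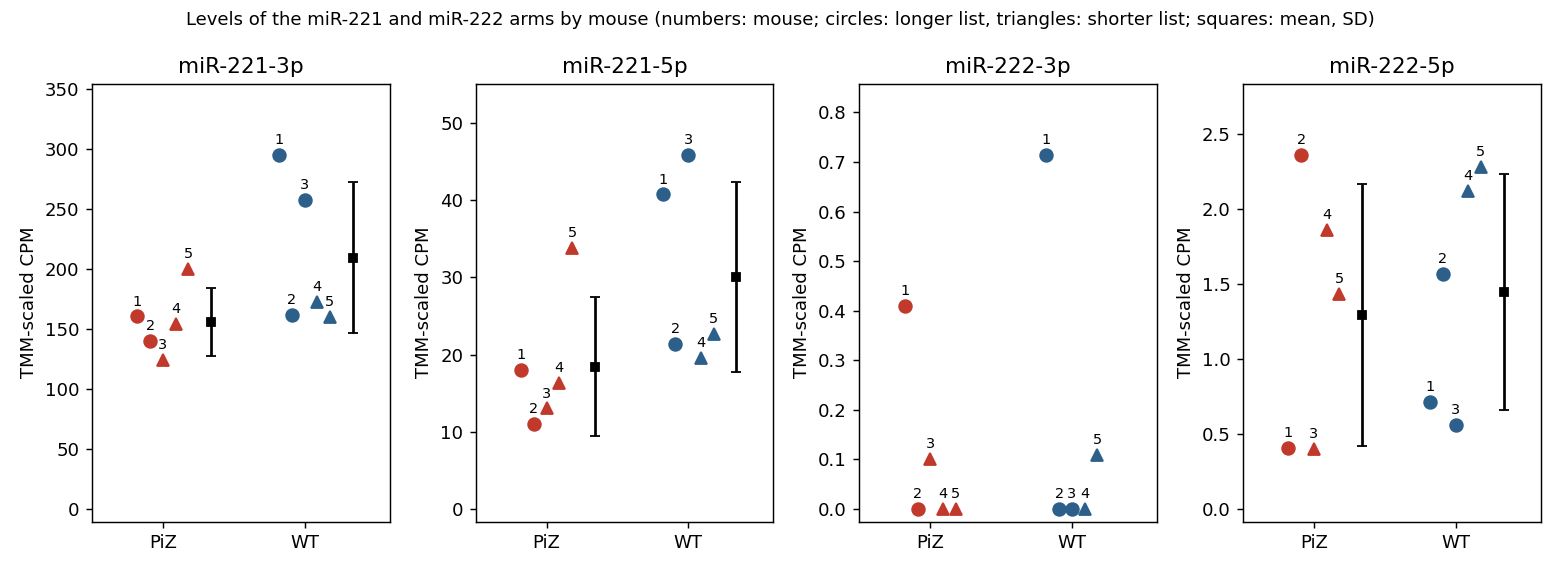
TMM-scaled CPM of each arm (vertical axis, 1 panel per arm, own scale) in PiZ (red) and WT (blue) mice, numbered by mouse, circles for the longer and triangles for the shorter file list; black squares and bars are the mean and SD of 5 mice, left out for miR-222-3p. WT mice 1 and 3 hold the highest miR-221-3p (295.3 and 257.6 CPM) and miR-221-5p (40.8 and 45.9 CPM), and miR-222-3p is at 0 in 6 of the 10 mice.

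The 2 technical runs gave the same picture for miR-221-3p. In WT mouse 1 the runs stood at 324.0 and 302.3 CPM (unscaled), and in WT mouse 3 at 302.9 and 299.8 CPM, so the high level was present in both runs of both mice. By an exact binomial test of the reads of each mouse, 0 of 10 mice differed between runs after adjustment (smallest p = 0.0334, in PiZ mouse 5, adjusted 0.334). miR-221-5p was less even. Its runs differed in WT mouse 1 (45 and 12 reads, 55.2 and 24.3 CPM; exact binomial p = 0.00909, adjusted 0.0455) and in WT mouse 2 (34 and 7 reads, 26.2 and 9.38 CPM; exact binomial p = 0.00897, adjusted 0.0455). In WT mouse 3 both runs of miR-221-5p were high, at 50.7 and 59.2 CPM. These tests compare runs of 1 library and cover counting error only.

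The size of the genotype difference followed the mice that entered the fit. Within the longer-list file set, which holds WT mice 1 and 3, the log2 fold change of miR-221-3p was -0.68 (95% interval -1.61 to 0.26; edgeR adjusted p = 0.409). Within the shorter-list set it was -0.099 (95% interval -0.65 to 0.45; edgeR adjusted p = 0.816). Without WT mice 1 and 3 it was -0.13 (95% interval -0.51 to 0.26; edgeR adjusted p = 0.660). The same 3 values for miR-221-5p were -1.32 (95% interval -2.46 to -0.17; edgeR adjusted p = 0.193), -0.058 (adjusted p = 0.945) and -0.25 (adjusted p = 0.662). Both strands were thus closest to 0 where WT mice 1 and 3 were absent, and neither passed in any of these fits.

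The difference between the file sets was itself tested as an interaction. It was 0.54 for miR-221-3p (shorter minus longer list, log2, SE 0.45; edgeR adjusted p = 0.873) and 1.24 for miR-221-5p (SE 0.70; edgeR adjusted p = 0.873). For miR-222-5p, which passed the filter in that fit, it had the opposite sign, -1.38 (SE 1.23; edgeR adjusted p = 0.873). None of the 3 was called, nor was any of the 372 miRNAs in that fit (0%), with 16 at an unadjusted p under 0.05 and 0 of 369 called by DESeq2. The low endothelial miR-126a of WT mice 1 and 3 accompanied their high miR-221, and its part in the result was not tested. In a whole liver, fewer cells of a type and less of a miRNA per cell cannot be told apart.

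**Figure D2:**
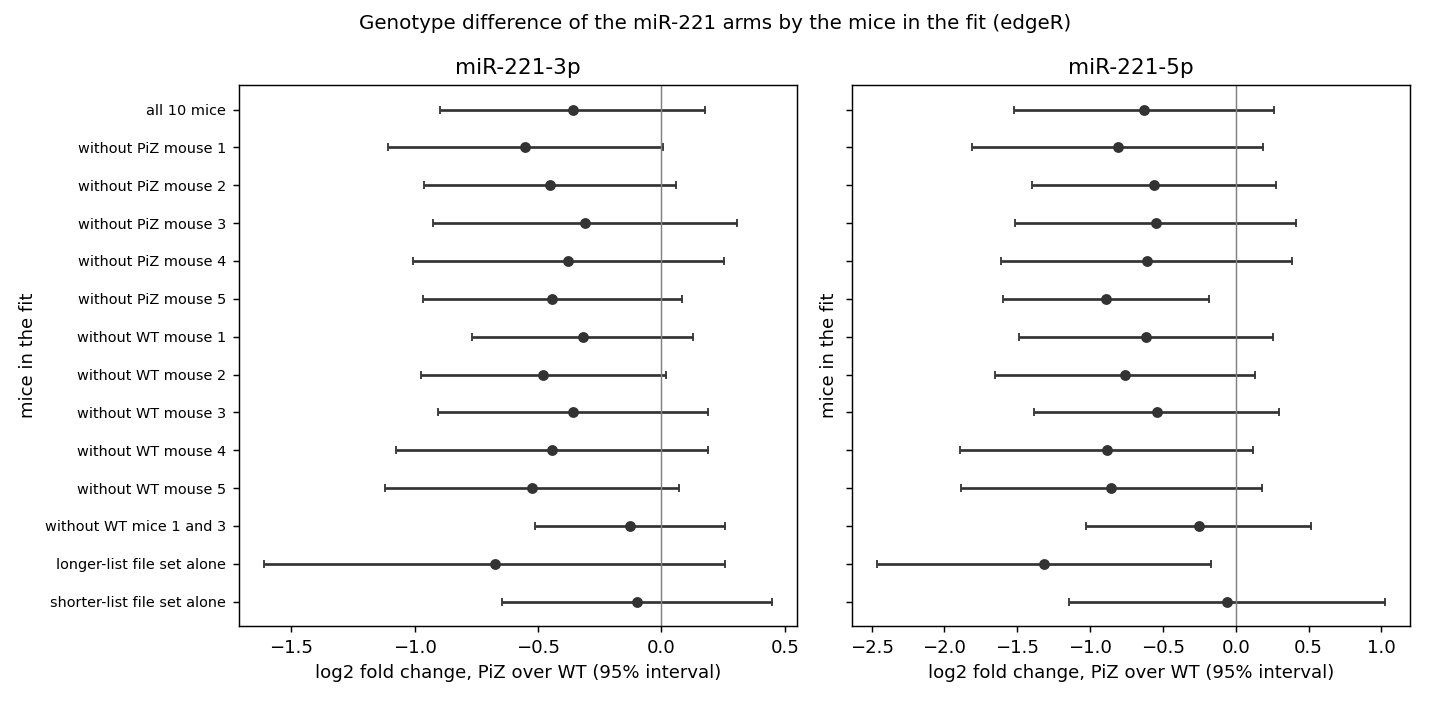
Log2 fold change of PiZ over WT for miR-221-3p and miR-221-5p (horizontal axis, points, bars are 95% intervals from edgeR) by the mice in the fit (vertical axis). All points lie below 0, from -0.68 to -0.099 for miR-221-3p and from -1.32 to -0.058 for miR-221-5p; the unadjusted interval excludes 0 for miR-221-5p in the longer-list set alone and without PiZ mouse 5.

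miR-222-3p, the strand with the shared seed, was close to absent from the tables. It had 4 reads in all, 1 each in PiZ mouse 1, PiZ mouse 3, WT mouse 1 and WT mouse 5, and 0 in the other 6 mice. The limit that a count of 0 allows, set at 3 reads, was 0.278 to 2.29 CPM depending on the library, and each of the 10 values was below it. No fold between the genotypes is given, since both groups were under that limit, and miR-222-3p did not pass the filter on low counts. With 4 reads in all, these libraries cannot show a difference in miR-222-3p between PiZ and WT.

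miR-222-5p, the other strand, had 84 reads, 1, 6, 4, 21 and 12 in PiZ mice 1 to 5 and 1, 3, 1, 14 and 21 in WT mice 1 to 5. This came to 1.29 ± 0.876 CPM in PiZ and 1.45 ± 0.788 CPM in WT (SD, n = 5 each), and the groups overlapped throughout. It also failed the filter with all 10 mice, and in the fit of every miRNA with at least 1 read its log2 fold change was -0.49 (95% interval -1.64 to 0.67; edgeR adjusted p = 0.792). WT mice 1 and 3, high for both miR-221 strands, had 1 read of miR-222-5p each.

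Set side by side over all mice, miR-221-3p had 2298 reads for each read of miR-222-3p (95% exact binomial interval 897.2 to 8436). The ratio was 2698.5 in PiZ (746.7 to 22288) and 1897.5 in WT (524.9 to 15674), with intervals that overlap almost fully. The 5p strands were less unequal, with 14.1 reads of miR-221-5p for each of miR-222-5p (11.3 to 17.8). Reads are not independent molecules, so these intervals cover counting error only, and cloning and matching can favour one sequence over another. How reads matching several miRNAs were assigned is not known here. All 4 rows held whole numbers in every run, whereas some other rows are fractional.

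The 2 hairpins had opposite arm balance. miR-221 had 88.6% of its reads on the 3p arm (9192 of 3p and 1187 of 5p, a ratio of 7.74, 95% exact binomial interval 7.29 to 8.23). miR-222 had 4.55% (4 of 3p and 84 of 5p), or 21.0 reads of 5p for each read of 3p (7.90 to 78.9). Among 178 hairpins with both arms listed and at least 50 reads, 125 had a lower 3p share than miR-221 and 49 had a lower 3p share than miR-222. A low 3p share was thus common in these tables, though for miR-222 it runs against the strand described as its guide. Relatives with opposite leading arms were also found in the miR-30 family. There miR-30e had 98.9% and miR-30d 82.0% of reads on the 3p arm, and miR-30a 14.3% and miR-30b 0.231%. How many other hairpins lean away from the strand described as their guide was not counted. The cause was not tested.

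**Figure D3:**
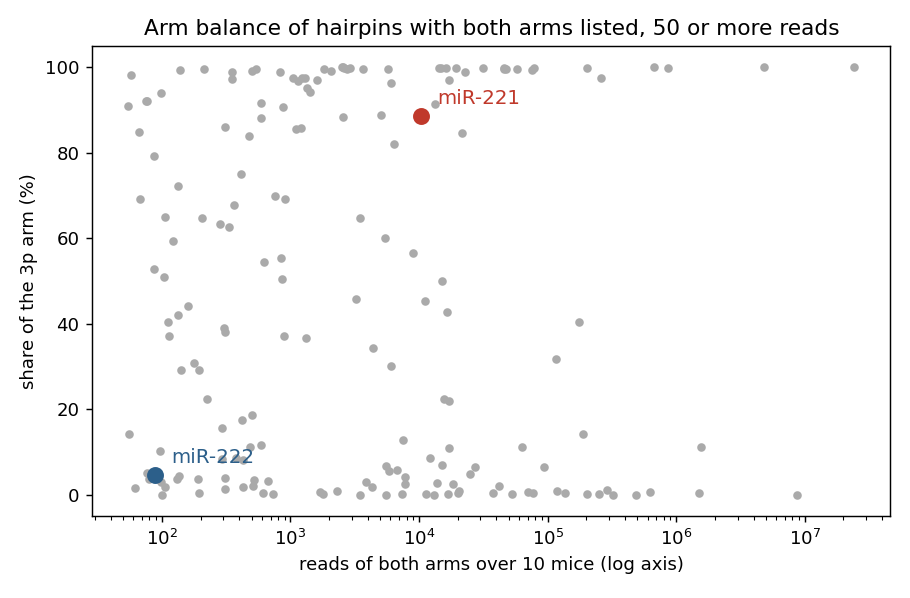
Share of the 3p arm in percent (vertical axis) against the reads of both arms over 10 mice (horizontal log axis) for 178 hairpins with both arms listed and at least 50 reads, with miR-221 in red and miR-222 in blue. miR-221 sits at 88.6% and miR-222, one of the least covered hairpins shown, at 4.55%.

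The arm balance of miR-221 was compared between genotypes within each mouse, which needs no scaling between libraries. The log2 ratio of miR-221-3p to miR-221-5p reads (pseudocount 0.5) was 3.14, 3.64, 3.25, 3.23 and 2.56 in PiZ mice 1 to 5. In WT mice 1 to 5 it was 2.85, 2.90, 2.48, 3.14 and 2.81. Of the PiZ mice, 4 lay above all WT mice and PiZ mouse 5 lay below all but WT mouse 3. The means were 3.17 ± 0.390 and 2.84 ± 0.236 (SD, n = 5 each), a difference of 0.33 that did not pass an exact two-sided permutation test over mice (p = 0.127, adjusted 0.413 over 4 exact tests; the smallest possible p was 0.00794). Without PiZ mouse 5 the difference was 0.48 (unadjusted exact permutation p = 0.0159). The 4 remaining PiZ mice all lie above all WT mice, so this is the smallest p that 4 against 5 mice allow. It follows from the choice of the mouse left out and is no support. The difference was 0.21 without WT mice 1 and 3 (unadjusted exact permutation p = 0.393) and 0.071 in run 2 alone (0.841). In the shorter-list set alone it was 0.039 (1), where 5 mice cannot give a p under 0.05. The size of the difference thus depended on the mice and the run.

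The other ratios were limited by miR-222-3p. The log2 ratio of miR-221-3p to miR-222-3p ran from 8.03 to 11.8 in PiZ and from 8.11 to 11.2 in WT. The lowest value of each group belonged to a mouse with 1 miR-222-3p read in a shallow library and the highest to a mouse with none in a deep one, so these values moved with depth and the pseudocount. PiZ minus WT was 0.47 (exact permutation p = 0.563, adjusted 0.751). For miR-222-3p to miR-222-5p it was -0.45 (exact permutation p = 0.754, adjusted 0.754).

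All 4 strands together made up 180.0, 155.5, 149.1, 180.0 and 201.3 CPM of all miRNA reads in PiZ mice 1 to 5. In WT mice 1 to 5 they made up 360.9, 173.4, 356.2, 182.0 and 170.2 CPM. The means were 173.2 ± 21.1 and 248.5 ± 100.5 CPM of unscaled totals (SD, n = 5 each), and the difference of -75.3 did not pass (exact permutation p = 0.206, adjusted 0.413). Without WT mice 1 and 3 it was -1.98 CPM (exact permutation p = 0.929), and within the shorter-list set 0.747 CPM. Without WT mouse 1 alone it was -47.2 CPM and without WT mouse 3 alone -48.4 CPM, so the lower mean of PiZ rested on these 2 mice.

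Across the 10 mice miR-221-3p varied less than most tested miRNAs and miR-221-5p varied more. miR-221-3p rested on 310 to 1736 reads per mouse and miR-221-5p on 28 to 283, so counting error weighs more on miR-221-5p. No comparison with miRNAs of like abundance was made, and the contrast is not read as a trait of the strands. The SD of log2 CPM was 0.386 for miR-221-3p, and 83 of 336 tested miRNAs (24.7%) had a smaller one, with a median of 0.558 over all tested. The highest mouse was 2.38-fold above the lowest. For miR-221-5p the SD was 0.670, with 217 miRNAs (64.6%) below it, and the highest mouse was 4.16-fold above the lowest. Without WT mice 1 and 3 the SDs were 0.202 and 0.489.

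The 2 strands of miR-221 moved together over the mice, with a Pearson r of 0.928 in log2 CPM over 10 mice, which share the library and its depth. From the side of miR-221-5p, miR-221-3p was the most like of 335 miRNAs. From the side of miR-221-3p, miR-29a-3p came first (r = 0.944), then miR-221-5p, miR-93-5p (0.911), miR-125b-5p (0.910) and miR-361-5p (0.896). With both file sets centred, the r of these 5 with miR-221-3p was 0.935, 0.938, 0.903, 0.920 and 0.879 in the same order. Much of the likeness rested on WT mice 1 and 3 for some and less for others: without them r was 0.776 for miR-29a-3p, 0.891 for miR-221-5p, 0.816 for miR-93-5p, 0.829 for miR-125b-5p and 0.620 for miR-361-5p. No like list could be made for miR-222-3p, which did not pass the filter.

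miR-93-5p, a member of the miR-17 family that is known to repress the cell cycle inhibitor p21, stood at 558 and 409 CPM in WT mice 1 and 3, while the other WT mice had 342 to 345 CPM and PiZ mice 315 to 398 CPM. miR-125b-5p stood at 1745 and 1419 CPM in WT mice 1 and 3, at 744 to 767 CPM in the other WT mice and at 604 to 1662 CPM in PiZ. Like both miR-221 strands, these 2 miRNAs were thus high in WT mice 1 and 3 and narrow in range among the other WT mice. They were picked for their likeness to miR-221-3p over these same mice, so this is not a separate finding. Their log2 fold changes of PiZ over WT were -0.14 (edgeR adjusted p = 0.732) and -0.30 (edgeR adjusted p = 0.717).

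**Figure D4:**
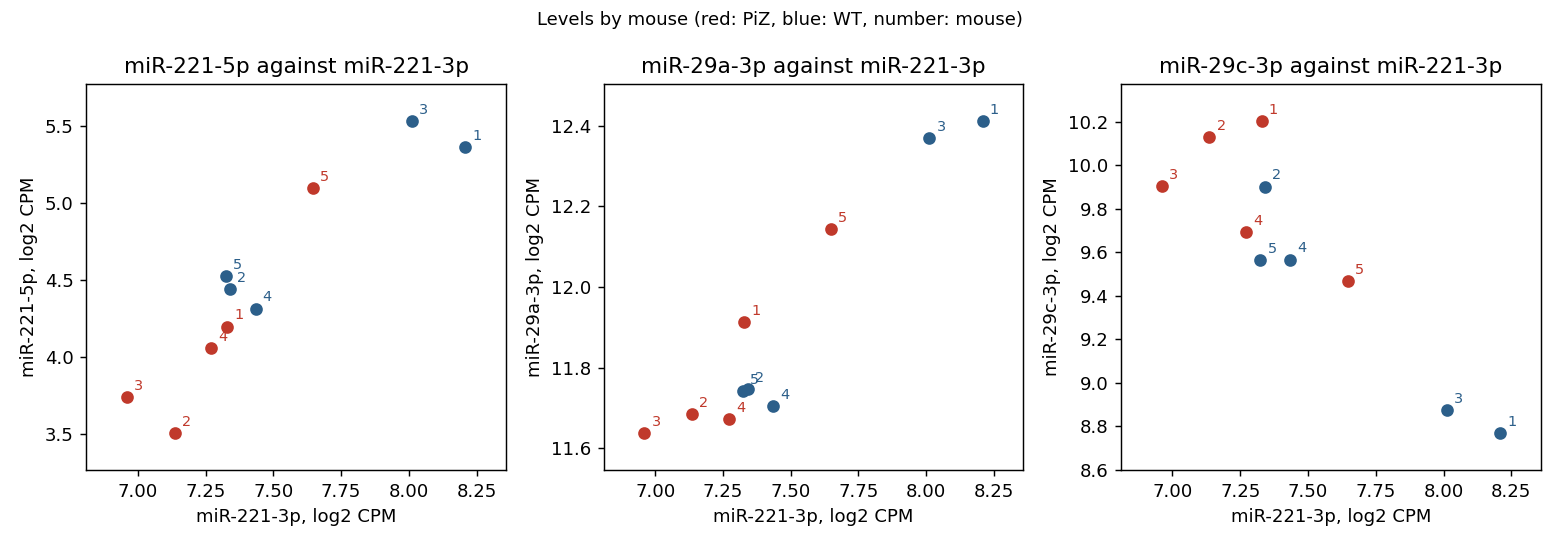
Log2 CPM of miR-221-5p, miR-29a-3p and miR-29c-3p (vertical axes) against log2 CPM of miR-221-3p (horizontal axes), 1 point per mouse, numbered, PiZ in red and WT in blue. miR-221-5p and miR-29a-3p rise with miR-221-3p (r of 0.928 and 0.944 over 10 mice) and miR-29c-3p falls (r of -0.899), with WT mice 1 and 3 at one end of every panel.

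Other miRNAs tied to liver regeneration were set beside miR-221. Of 12 tested, 0 were called in either direction by edgeR, beside 9.23% of all tested. A negative log2 fold change was found in 7 of them, beside 158 of 336 (47.0%), and their median was -0.26 against 0.069 for all tested. The most abundant was miR-26a-5p, known to restrain hepatocyte proliferation, with 44802 ± 5712 CPM among PiZ mice and 60560.4 ± 1553 CPM among WT mice (SD, n = 5 each; log2 fold change -0.44, SE 0.16, edgeR adjusted p = 0.116). Next was miR-21a-5p, known to be induced early after partial hepatectomy, at 24746 ± 6669 and 23654 ± 14720 CPM (log2 fold change 0.039, edgeR adjusted p = 0.971). The log2 fold change of miR-221-3p, -0.36, lay inside the range of this list, -0.61 to 2.50.

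Of 8 tested miRNAs that, like miR-221-3p, are known to target cell cycle inhibitors, 0 were called by edgeR (9.23% of all tested), 6 had a negative log2 fold change (47.0% of all tested) and the median was -0.12. The most abundant, miR-148a-3p, which shares p27 as a described target, had 106040 ± 31239 CPM among PiZ mice and 55806 ± 19402 CPM among WT mice (SD, n = 5 each; log2 fold change 0.92, edgeR adjusted p = 0.0947). miR-92b-3p, described as targeting p57, had 6616 ± 900.1 and 12125 ± 5627 CPM (log2 fold change -0.75, edgeR adjusted p = 0.110). Among the miRNAs of this list, the sign of the difference was therefore not shared, and none passed.

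Markers of the cell types that a whole liver holds were summed per mouse beside these levels, and the members of each list were then read singly, since 1 or 2 abundant miRNAs carry each sum. In WT mice 1 and 3, the smooth muscle and pericyte list summed to 5330 and 7756 CPM, while the other WT mice had 10982 to 16221 CPM and PiZ mice 9143 to 14221 CPM. That sum is nearly all miR-143-3p. miR-145a-5p of the same list went the other way, at 561 and 343 CPM where the other 8 mice had at most 294.8 CPM. Of the 4 members of this list, 2 lay below and 2 above the other WT mice. The second one above was miR-143-5p, at 1.43 and 1.68 CPM, which had 31 reads in all, failed the filter and is too low to be read here. The immune list summed to 912 and 1869 CPM, where the other WT mice had 1252 to 2171 and PiZ mice 1896 to 3037 CPM. In WT mouse 3 most of the sum was miR-146a-5p, at 1242 CPM. WT mouse 1 had 219 CPM of it, the other WT mice at most 313 CPM and PiZ mice at most 511 CPM. Both miR-142 strands and miR-223-3p (3 of 8 members) lay below all other mice, and miR-150-5p lay above the other WT mice. The erythroid list summed to 47.2 and 21.8 CPM, where the other WT mice had 66.3 to 250.6 and PiZ mice 84.3 to 509 CPM, with miR-451a and both miR-144 strands (3 of 4 members) below all other mice.

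The stellate and fibroblast sum was 318 and 377 CPM in WT mice 1 and 3, where the other WT mice had 219 to 275 CPM and PiZ mice 260 to 370 CPM. Both miR-214 strands (2 of 4 members) lay above the other WT mice, and miR-199b-5p, at 1.43 and 11.8 CPM, did not. The biliary-epithelial sum was 247 and 281 CPM, where the other WT mice had 192 to 238 CPM and PiZ mice 182 to 319 CPM. Most of it was miR-200c-3p. Of its 7 members 2 lay above the other WT mice. miR-200a-3p and miR-141-3p, each at 8.58 and 13.4 CPM, did not set these 2 mice apart. The other WT mice had 9.91 to 16.3 and 9.91 to 16.1 CPM. All 5 PiZ mice lay above all WT mice for both miRNAs, but neither was called (edgeR adjusted p = 0.109 and 0.113). The share of all tested miRNAs with such a separation was not counted. Of the endothelial list, miR-126a-5p lay below all other mice and miR-126a-3p below the other WT mice. The high miR-221 of WT mice 1 and 3 thus came with lower levels of many listed strands than in any other mouse. These were miR-126a-5p, miR-143-3p, both miR-142 strands, miR-223-3p, both miR-144 strands, miR-451a, and hepatocyte miR-122-3p and both miR-802 strands. Higher than in any other mouse were miR-145a-5p and miR-214-3p. How many of all tested miRNAs set WT mice 1 and 3 apart in this way was not counted. Lists of no cell type held such members too. In the liver regeneration list, 2 of 12 members lay below and 2 above all other mice. In the other cell cycle inhibitor-targeting list, 2 of 9 lay below and 4 above. The counts are therefore not read as shifts of cell types, and the part of these cell types in the miR-221 levels was not tested.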

How the data were processed

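Small RNA libraries (TruSeq, miRNeasy RNA from frozen liver) were made and run in 2 technical replicates, per the labels' protocols. The authors deposited estimated counts per mature miRNA for each of 20 runs, some of them fractional. The submitters' processing notes name CASAVA. No source used here gives the aligner, the miRNA reference or the build. Runs were summed per mouse and rounded. Mice were told apart by the numbers in the labels, which say no more of them. If numbers were not separate animals, p-values would measure technical spread. The 880 rows in every file were filtered (filterByExpr) and scaled (TMM). The quasi-likelihood test of edgeR 4.0.16 was fitted with terms for genotype and file set, and its p-values were adjusted after Benjamini and Hochberg (threshold 0.05). SE is the absolute log2 fold change over the square root of F. Exact permutation tests over 252 splits used scipy 1.17.1; likeness used log2 CPM with a prior count of 2. Alternatives used DESeq2 1.42.0 and limma 3.58.1 in R 4.3.3. Scripts were tested on simulated data. Named miRNAs were all member rows, seed relatives, the 5 most like miRNAs, and list members that passed or else the 2 most abundant. The members and lists were chosen with earlier results of these data known.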

Additional observations from a re-analysis of the deposited data

How the results depend on the processing

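For miR-221-3p all 24 alternatives kept a negative log2 fold change that did not pass (-0.68 to -0.099, edgeR adjusted p 0.179 to 0.816), as did all 24 for miR-221-5p (-1.32 to -0.058, adjusted p 0.0857 to 0.945). All 12 for the file-set interaction of miR-221-3p kept its sign and its side of the threshold (0.31 to 0.77, adjusted p 0.352 to 0.9999). miR-222-3p, with 4 reads in all, failed the filter with all mice. miR-222-5p failed it with all mice and passed without WT mice 1 and 3 (-0.71, edgeR adjusted p = 0.504) and in the shorter-list set (-0.86, edgeR adjusted p = 0.509). Ratios with miR-222-3p changed sign: miR-221-3p to miR-222-3p was -0.086 in run 2 alone and -0.32 in the longer-list set alone. miR-222-3p to miR-222-5p was 0.76 without WT mice 1 and 3, 0.22 in run 2 alone and 0.46 in the shorter-list set alone, and ran from -1.22 to 0.20 when 1 mouse was left out (0.14 without PiZ mouse 4, 0.20 without WT mouse 1). The miR-221 arm ratio ran from 0.21 to 0.48 with 1 mouse left out (0.48 without PiZ mouse 5) and from 0.039 to 0.65 over all 17 alternatives. The summed share was 0.747 CPM in the shorter-list set alone.

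The count of called miRNAs, 31, was 18 with library totals that leave out miR-22-3p, 83 with every miRNA of at least 1 read, 8 at 10 CPM in 5 mice, 50 by DESeq2, 7 by limma-voom, 17 with no file set term and 18 in run 2 alone. It was 0 by edgeR without WT mice 1 and 3 (104 at an unadjusted p under 0.05) and 0 in the shorter-list set alone (55). Leaving out 1 mouse gave 5 to 46: 9, 12, 17 and 20 without PiZ mice 1 to 4, and 12, 10, 12, 5 and 8 without WT mice 1 to 5. The fits with fewer mice tested 277 to 410 miRNAs, since the filter was rebuilt; otherwise the cause was not tested. No paired analysis was possible because the shared numbers name the 2 sequencing runs of each library, which were summed, and PiZ and WT mice are different animals.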

Other observations

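miR-29a-3p and miR-29c-3p, chosen after their values were seen, stood at opposite ends of the likeness to miR-221-3p although they share a seed and differ at 1 position. RefSeq (GRCm38.p6) gives them as follows, with the seed in capitals.
miR-29a-3p: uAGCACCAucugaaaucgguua
miR-29c-3p: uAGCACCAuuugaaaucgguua
miR-29a-3p stood at 5447 and 5292 CPM in WT mice 1 and 3, 3338 to 3438 CPM in the other WT mice and 3188 to 4523 CPM in PiZ. miR-29c-3p stood at 436 and 469 CPM in WT mice 1 and 3, 756 to 956 CPM in the other WT mice and 708 to 1179 CPM in PiZ. Its r with miR-221-3p was -0.899 over 10 mice, -0.945 with file sets centred and -0.577 without WT mice 1 and 3, so in these data the opposite course of the 2 relatives was widest in the mice with the most miR-221. Neither passed the genotype test (log2 fold change -0.14, edgeR adjusted p = 0.743 for miR-29a-3p, and 0.51, edgeR adjusted p = 0.233 for miR-29c-3p).

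The miRNA least like miR-221-3p of 335 was miR-142-3p (r = -0.940), a miRNA of blood and immune cells, at 15.7 and 29.1 CPM in WT mice 1 and 3, 69.7 to 105 CPM in the other WT mice and 81.0 to 144 CPM in PiZ. miR-136-5p (r = -0.918) and miR-369-3p (r = -0.915) followed. Both belong to the imprinted Dlk1-Dio3 cluster, and both were listed at 0 in WT mice 1 and 3. A count of 0 there allows up to 2.29 and 1.97 CPM, and the other WT mice had 0.543 to 1.21 CPM of miR-136-5p and 0.868 to 2.61 CPM of miR-369-3p, so at this depth these zeros, and the r values they enter, show no difference among WT mice. Without WT mice 1 and 3, r with miR-221-3p was -0.788 for miR-136-5p, -0.808 for miR-369-3p and -0.686 for miR-142-3p, so the negative r did not rest on these zeros alone. These miRNAs too were chosen after their values were seen. Dixon's gap test was used to look for 1 far value in each of 10 groups of 5 mice, over the members' levels and ratios. It found 0, where chance gives about 0.5. The test cannot flag 2 mice that are high together, such as WT mice 1 and 3. For the summed share, WT mouse 1 had a gap of 0.0246 against a limit of 0.71.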
